A study of Mus musculus with 24 samples.

Results

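Glial cell marker genes are genes whose transcripts define the non-neuronal cells of the brain, and 39 of them were followed here through the DNA methylation of the mouse dentate gyrus. The set held 12 genes of myelin and the mature oligodendrocyte, 4 transcription factors of the oligodendrocyte lineage, 2 genes of the oligodendrocyte precursor, 10 astrocyte genes and 11 microglia genes. Each gene was taken with 2 kb on either side of its GENCODE M21 annotation, and every measured CpG in that region was assigned to it. The rule used the known cell types of the genes and no methylation value, but it was set with earlier results of these data known. Of 55450 annotated genes in the table, these 39 were the members, and 33 of them had the 3 or more CpGs that were required for a regional value.

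Oligodendrocytes wrap axons in myelin and arise from precursors that persist in the adult brain. Astrocytes take up glutamate, buffer potassium and join into networks through gap junctions, and microglia are the resident macrophages, which prune synapses and clear debris. CpG-rich promoters are largely unmethylated whether or not the gene is used, whereas methylation of CpGs in gene bodies and in CpG-poor promoters often differs between cell types. In bulk tissue the methylation of a glial gene is an average over all cells, neurons included.

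The measurements came from reduced representation bisulfite sequencing (RRBS), which cuts DNA at CCGG sites and reads methylation at the CpGs next to them. Female C57BL/6JRj mice were compared: 5 mice aged 1.5 months in standard cages (Young STD), 7 mice aged 14 months in standard cages (Aged STD) and 7 mice aged 14 months that had lived in an enriched environment (Aged ENR). Each library was the micro-dissected dentate gyrus of a single animal. The comparison of Aged STD with Young STD addressed ageing, that of Aged ENR with Aged STD addressed enrichment in old animals, and that of Aged ENR with Young STD addressed ageing in enriched animals. The first and second comparison share the Aged STD mice, and the first and last share the Young STD mice.

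The table held 762162 CpG cytosines as methylation percentages, with no read counts, so the depth behind a single value is unknown beyond the coverage minimum of the study's methods. Between 489796 and 725449 of them were measured per mouse and 69034 in all 19 mice. The libraries did not sample the same parts of the genome: the average level in Young STD mice of whichever CpGs a library covered, called the composition index below, was 30.5% to 32.1% in Young STD mice, 19.5% to 38.0% in Aged STD mice and 23.4% to 36.2% in Aged ENR mice. It lay under 25% in 3 Aged STD mice and 1 Aged ENR mouse. At the 69034 CpGs measured in all mice, these 4 also had the lowest mean levels, 16.3% to 17.7%. Young STD mice stood at 19.6% to 21.8% there. Leaving these mice out therefore also removes mice of low methylation and is not a correction for coverage alone. Most regional differences discussed below are given with and without these 4 mice, whereas the group means include them.

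The glial regions held 1414 CpGs, 0.186% of all, with a median of 24 CpGs in the 33 regional members. No CpG was measured for Ermn, which encodes a cytoskeletal protein of myelin, or for Aif1, whose protein is a common stain for microglia. A single CpG was measured for Aspa, which breaks down N-acetylaspartate, for S100b, for the colony-stimulating factor receptor gene Csf1r and for the complement chain gene C1qb. A CpG of these genes was measured in a median of 15 mice, and 95 CpGs were measured in all 19. Promoters, taken as 1 kb on either side of a transcription start, held 726 of the CpGs, in 26 genes, whereas exons held 226, introns 375 and the flanks 87. Of the 1414 CpGs, 227 also lay inside another protein-coding gene.

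Promoter and gene-body CpGs of glial genes differed widely in level. In Young STD mice the mean over promoter CpGs was 7.56%, and 598 of 726 (82.4%) were under 10%. The 688 CpGs outside promoters averaged 34.2%, and 140 of them (20.3%) were over 80%. The plot of CpG level by distance from the transcription start shows this split for each cell type. The 5 stretches printed next span the range of levels that the results turn on, and capitals mark the CpGs that were measured. They are GRCm38 (mm10) sequence, 5′ to 3′, and each begins or ends near the CCGG site that brought it into the library.
Slc1a2 promoter, chr2:102658333-102658539, plus strand: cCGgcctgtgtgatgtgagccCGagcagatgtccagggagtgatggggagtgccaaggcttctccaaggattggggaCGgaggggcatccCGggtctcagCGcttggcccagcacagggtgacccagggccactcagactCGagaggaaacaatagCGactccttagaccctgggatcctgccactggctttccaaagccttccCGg
Mog coding exon, chr17:37020522-37020684, minus strand: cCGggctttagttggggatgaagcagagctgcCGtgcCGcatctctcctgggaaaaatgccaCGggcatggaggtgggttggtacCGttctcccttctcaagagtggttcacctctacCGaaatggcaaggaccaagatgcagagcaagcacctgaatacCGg
Tmem119 coding exon, chr5:113795325-113795558, minus strand: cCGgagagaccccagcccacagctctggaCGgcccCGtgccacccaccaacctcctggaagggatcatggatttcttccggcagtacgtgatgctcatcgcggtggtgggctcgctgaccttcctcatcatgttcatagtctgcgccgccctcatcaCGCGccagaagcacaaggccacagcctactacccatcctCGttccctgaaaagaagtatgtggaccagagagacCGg
Cldn11 downstream flank, chr3:31166232-31166299, plus strand: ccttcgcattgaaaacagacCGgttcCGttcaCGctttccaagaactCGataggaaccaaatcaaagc
Glul promoter, downstream of the start, chr1:153901721-153901843, plus strand: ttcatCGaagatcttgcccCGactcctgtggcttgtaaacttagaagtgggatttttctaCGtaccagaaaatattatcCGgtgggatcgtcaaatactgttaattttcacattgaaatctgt
The Slc1a2 stretch lies just upstream of the start of the main astrocytic glutamate transporter gene. Its 12 measured cytosines averaged 2.48% ± 4.83 (SD) in Young STD mice, 2.10% ± 2.70 in Aged STD mice and 1.46% ± 2.09 in Aged ENR mice. The Mog stretch stood at the other end, with 91.1% in Young STD mice.

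**Figure D1:**
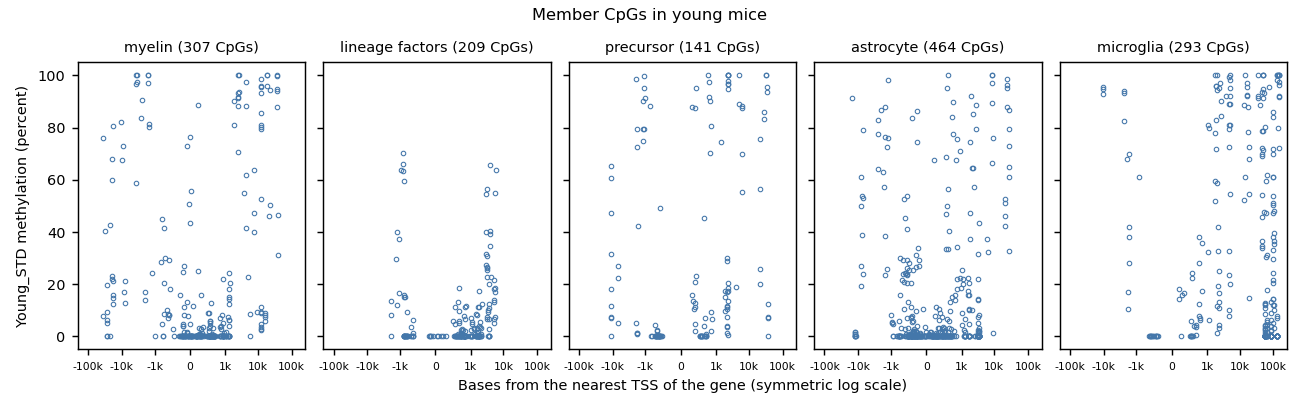
Mean methylation of each measured glial CpG in Young STD mice (%, vertical axis) against its distance from the nearest transcription start (horizontal axis), by cell type list. Promoter CpGs sat mostly under 10%, and levels outside promoters ranged from 0 to 100%.

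No glial gene region differed between groups after adjustment over all regions. For each mouse, a region's level was the mean of its CpGs, corrected for which CpGs were measured in that mouse. A value can therefore fall below 0 or above 100, up to 112% at Opalin in an Aged STD mouse. limma was fitted to all regions, and the smallest Benjamini-Hochberg adjusted p of a member was 0.385 for Aged STD against Young STD, 0.951 for Aged ENR against Aged STD and 0.444 for Aged ENR against Young STD. The same fits called 0 of 25694, 0 of 25702 and 0 of 25696 regions across the genome. For single regions, clusters and CpGs an exact two-sided permutation test over the mice is also given, which is not adjusted for the number of genes. Because the tissue is bulk, a different share of a cell type and a different level within its cells cannot be told apart in any of the values that follow.

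In Aged STD mice, 26 of 33 glial regions were lower than in Young STD mice, and the median difference was -2.56 percentage points, against -0.79 over all regions. At an unadjusted limma p below 0.05, 6 members were lower (18.2%) and 0 were higher, where 9.85% of all regions passed this limit, 8.56% lower and 1.29% higher. They were Mbp, Sox10, Sox8, Aldh1l1, Slc1a2 and Cx3cr1, at least 1 from each list but the precursors. Without the 4 mice of low composition index, 3 members passed, with Slc1a2 and Sox10 lower and Olig2 higher, against 5.84% of all regions, 21 of 33 regions were lower, and the median difference was -2.01 against -0.30. With the composition index as a covariate, only Slc1a2 and Cx3cr1 passed, against 6.72% of all regions. When the mean over all regions was subtracted from each mouse, the median over all regions moved to 1.24, the members' median was -0.51, and the 6 members that passed split into 2 lower (Mbp and Sox8) and 4 higher (Pdgfra, Cnp, Olig1 and Olig2), against 17.1% of all regions.

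The comparison for enrichment followed the same regions in old animals. Against Aged STD mice, 27 of 33 regions were higher in Aged ENR mice, with a median difference of 1.34 points against 0.32 over all regions. None of the 33 reached an unadjusted limma p below 0.05, where 4.37% of all regions did, 1.29% lower and 3.08% higher. Without the mice of low composition index the members' median was -0.06 with 16 of 33 higher, and Glul alone passed, higher in Aged ENR mice, against 3.74% of all regions. Against Young STD mice, 23 of 33 regions of Aged ENR mice were lower, with a median of -1.40 against -0.46. Of these, 5 passed (15.2%), all lower, against 7.60% of all regions, 6.01% lower and 1.58% higher. They were Mbp, Sox8, Slc1a2, Tmem119 and Cx3cr1. The same 5 passed without the mice of low composition index, against 6.84% of all regions, with a median of -0.93.

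**Figure D2:**
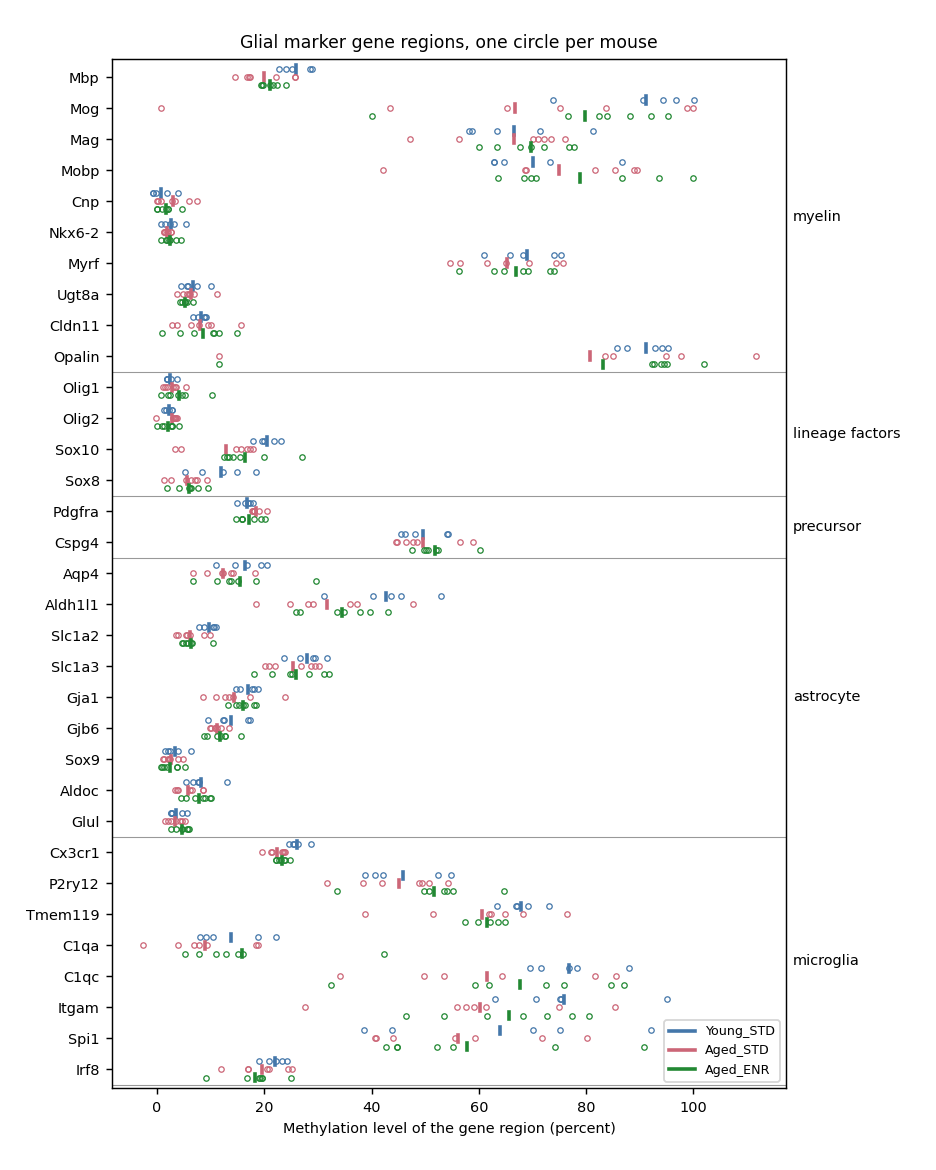
Regional methylation level (%, horizontal axis) of glial members (vertical axis) in each of the 19 mice, grouped as Young STD, Aged STD and Aged ENR. Most regions had overlapping ranges in the 3 groups, and single old mice lay far below the others at Mog and Itgam.

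**Figure D3:**
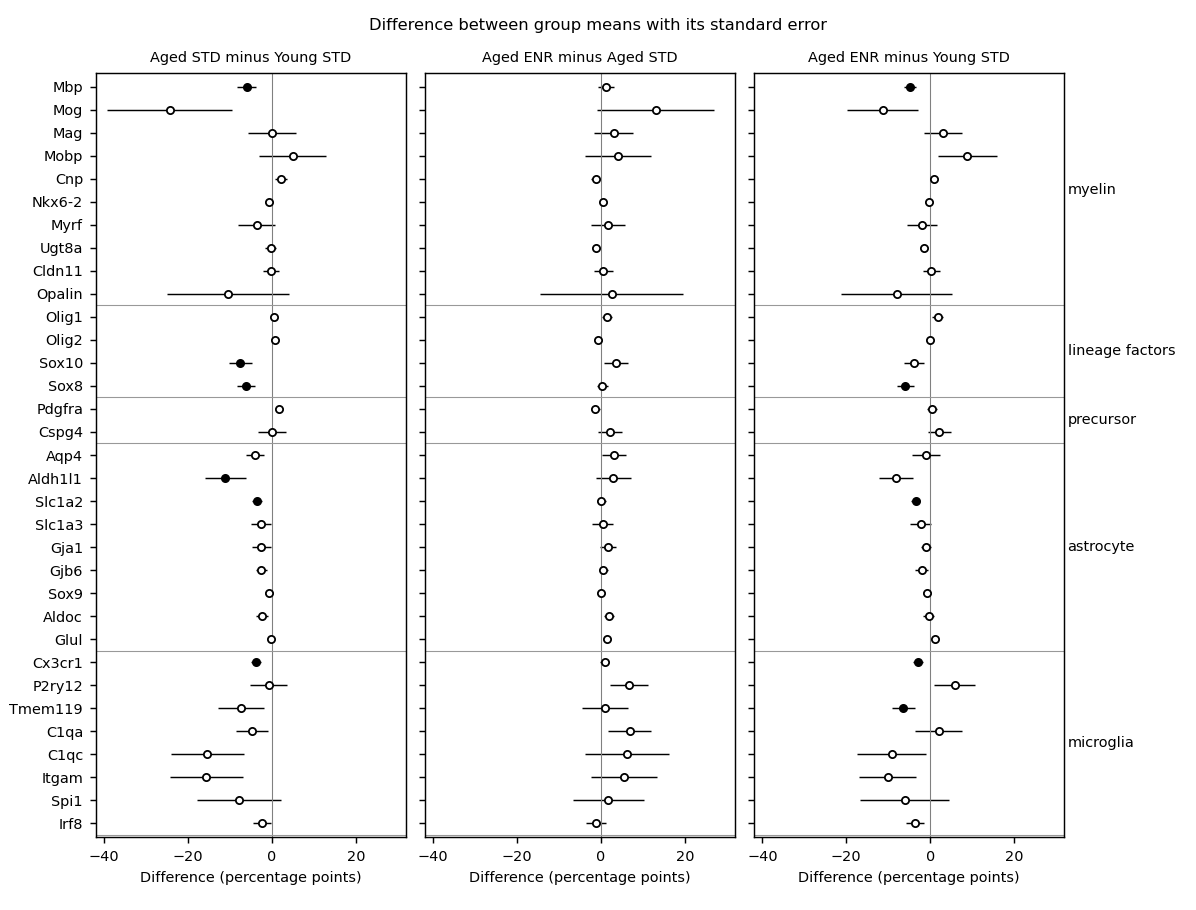
Difference in regional level (percentage points, with its standard error) for the 33 glial regions in each of the 3 comparisons, ordered by cell type list. Filled points have an unadjusted limma p below 0.05, and all of them lie below 0.

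Promoter CpGs and the other CpGs of each region were also fitted separately. With promoter CpGs alone, 0 of 24 regions reached an unadjusted limma p below 0.05 in Aged STD against Young STD, against 6.36% of all regions with promoter CpGs, and the median difference was -0.47. With the CpGs outside promoters, 8 of 30 did, all lower, against 11.0% of all regions: Mbp, Cldn11, Sox10, Sox8, Slc1a2, Gja1, Gjb6 and Cx3cr1, with a median of -5.35 over the 30. The mean over the 688 CpGs outside promoters was 34.2% in Young STD, 29.4% in Aged STD and 30.6% in Aged ENR mice, whereas the promoter mean was 7.56%, 6.52% and 7.30%. The difference between promoter and other CpGs was not itself tested.

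Among the myelin genes, 10 regions were tested, and 7 were lower in Aged STD than in Young STD mice, with a median of -0.54. When the mice of low index were left out 4 of 10 were lower, with a median of 0.63. Their 307 CpGs had low promoters in all groups, at 5.16%, 4.60% and 4.67%, and a mean outside promoters of 45.6%, 40.5% and 42.1% in the same order of Young STD, Aged STD and Aged ENR. Mbp, on chromosome 18, encodes myelin basic protein, which compacts the myelin sheath. Its regional level was 24.0%, 22.8%, 25.2%, 28.9% and 28.6% in the 5 Young STD mice. It ran from 14.5% to 25.7% in Aged STD mice with a median of 17.4%, and from 19.4% to 24.0% in Aged ENR mice with a median of 21.0%. The ranges overlapped, although 5 of 7 Aged STD and 6 of 7 Aged ENR mice lay below every young mouse. The group means were 25.9% ± 2.75 (SD, n = 5) in Young STD and 19.9% ± 4.56 (SD, n = 7) in Aged STD mice. The difference was -5.97 (SE 2.28, exact permutation p = 0.0290, adjusted limma p = 0.44), and without the mice of low composition index it was -3.29 (exact permutation p = 0.206). Aged ENR mice differed from Young STD mice by -4.81 (SE 1.45, exact permutation p = 0.00379, adjusted limma p = 0.463), and by -4.54 without the mice of low index (exact permutation p = 0.00866). The Mbp CpGs outside the promoter stood at 36.8% in Young STD, 27.7% in Aged STD and 29.3% in Aged ENR mice.

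Mog, the gene of myelin oligodendrocyte glycoprotein (chr17:37010743-37023398, minus strand), had the largest difference of any glial region in Aged STD against Young STD. All of its 8 measured cytosines lie in the exon stretch printed above. Young STD mice stood at 100%, 90.5%, 73.8%, 94.4% and 96.8%. Aged STD mice ran from 0.75% to 100% with a median of 75.1%, and Aged ENR mice from 40.1% to 95.3% with a median of 83.8%. The lowest mouse of each old group had a low composition index. The difference of Aged STD from Young STD was -24.4 (SE 15.0, exact permutation p = 0.165) and was -9.60 without the mice of low index. Aged ENR mice differed by 13.1 from Aged STD (SE 14.0, exact permutation p = 0.422) and by -11.3 from Young STD mice (SE 8.53, exact permutation p = 0.264), and by 4.88 and -4.72 without the mice of low index. The other myelin genes differed less between the group means. Mag, a glycoprotein that faces the axon, stood at 66.6%, 66.6% and 69.6% in the 3 groups in that order, and Mobp, a structural protein of compact myelin, at 70.1%, 75.0% and 78.9%. Myrf, the transcription factor that switches on myelin genes, stood at 68.9%, 65.3% and 66.9%, and Opalin, a membrane protein of the sheath, at 91.1%, 80.7% and 83.2%. The Aged STD difference of Opalin was -10.5 and turned to 6.10 without the mice of low index. The lowest mouse of each old group stood at 11.6% there. Nearly unmethylated regions were those of Cnp, a phosphodiesterase of non-compact myelin (0.83%, 2.94% and 1.65%), and Nkx6-2, a homeodomain factor (2.64%, 1.88% and 2.41%). Ugt8a, which makes galactosylceramide, stood at 6.68%, 6.36% and 5.28%, and Cldn11, the tight junction protein of myelin, at 8.26%, 8.0% and 8.54%. The single CpG of Aspa was at 81.2%, 69.1% and 72.6%.

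The 4 lineage factors had a median difference of -2.89 in Aged STD mice, with Sox10 and Sox8 lower and Olig1 and Olig2 slightly higher. Sox10 (chr15:79154908-79165240, minus strand), which specifies the oligodendrocyte lineage and drives myelin genes, stood at 17.8%, 19.96%, 21.8%, 19.6% and 23.1% in Young STD mice. Aged STD mice ran from 3.33% to 17.9% with a median of 15.6%, and Aged ENR mice from 12.5% to 26.98% with a median of 14.2%. The Aged STD range met the young range at its lower end. The Aged STD difference was -7.56 (SE 2.74, exact permutation p = 0.0189, adjusted limma p = 0.418), and -6.85 without the mice of low index (exact permutation p = 0.0159). Aged ENR mice differed from Aged STD mice by 3.62 (SE 2.90, exact permutation p = 0.263), and by 3.07 without the mice of low index. Sox8 (chr17:25565892-25570686, minus strand), a relative of Sox10 from the same SoxE family, stood at 5.27%, 12.3%, 8.46%, 14.9% and 18.4% in Young STD mice. It ran from 1.37% to 9.25% in Aged STD mice with a median of 6.31%, and from 1.88% to 9.56% in Aged ENR mice with a median of 6.15%. Both old groups overlapped with the lower young mice, and they were close to each other. The difference from Young STD was -6.23 in Aged STD mice (SE 2.12, exact permutation p = 0.0215, adjusted limma p = 0.409) and -5.91 in Aged ENR mice (SE 2.06, exact permutation p = 0.0215, adjusted limma p = 0.536). Without the mice of low index these were -4.37 (exact permutation p = 0.151) and -5.92 (exact permutation p = 0.0411). In Sox8 the promoter was at 3.30% in Young STD mice, and the other CpGs went from 20.2% in Young STD to 8.59% in Aged STD and 9.94% in Aged ENR mice. Olig1 and Olig2, the basic helix-loop-helix factors that start the lineage, were nearly unmethylated, at 2.40%, 2.85% and 4.18% for Olig1 and 2.20%, 2.87% and 2.13% for Olig2.

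The precursor genes were the only list with no region lower in Aged STD mice. Pdgfra (chr5:75152292-75198215, plus strand) encodes the receptor for platelet-derived growth factor that keeps precursors dividing. It stood at 17.3%, 14.9%, 17.0%, 17.98% and 16.4% in Young STD mice, at 17.7% to 20.6% in Aged STD mice (median 18.03%) and at 14.8% to 20.1% in Aged ENR mice (median 15.9%). The Aged STD difference was 1.77 (SE 0.92, exact permutation p = 0.00379), where the limma fit gave an unadjusted p above 0.05, and it was -0.62 when only CpGs measured in every mouse were used. It was 1.84 without the mice of low index (exact permutation p = 0.0397). Cspg4, the gene of the NG2 proteoglycan (chr9:56865033-56899870, plus strand), stood at 48.0%, 46.2%, 54.1%, 45.4% and 54.2% in Young STD mice. It ran from 44.6% to 59.0% in Aged STD mice and from 47.6% to 60.2% in Aged ENR mice, so the 3 groups covered nearly the same range. Aged ENR mice differed from Young STD mice by 2.20 (SE 2.69, exact permutation p = 0.390), and by -2.31 over the CpGs outside the promoter. They differed from Aged STD mice by 2.16 (SE 2.90, exact permutation p = 0.422), and by 0.44 without the mice of low index.

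Astrocyte genes were lower in Aged STD mice in 9 of 9 tested regions, with a median of -2.56, and in 8 of 9 without the mice of low index. In Aged ENR mice the median against Young STD was -0.98. Slc1a2 (chr2:102658659-102790784, plus strand), the glutamate transporter that clears most synaptic glutamate, had the smallest limma p of any member in both comparisons with Young STD mice, though not the smallest exact permutation p. It stood at 7.80%, 10.7%, 8.80%, 11.1% and 10.5% in Young STD mice, at 3.51% to 9.93% in Aged STD mice (median 5.60%) and at 4.59% to 10.4% in Aged ENR mice (median 5.86%). Again 5 of 7 Aged STD and 6 of 7 Aged ENR mice lay below every young mouse. The difference from Young STD was -3.58 in Aged STD mice (SE 1.15, exact permutation p = 0.0189, adjusted limma p = 0.385) and -3.48 in Aged ENR mice (SE 1.009, exact permutation p = 0.0114, adjusted limma p = 0.444). Without the mice of low index it was -2.99 (exact permutation p = 0.0476) and -3.53 (exact permutation p = 0.0195). When only CpGs measured in every mouse were used, the Aged ENR difference was 0.38 and the Aged STD difference was -2.86. Promoter CpGs, which include the stretch printed above, averaged 1.95% in Young STD mice, whereas CpGs outside the promoter went from 37.7% to 22.4% in Aged STD and 21.7% in Aged ENR mice.

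Aldh1l1 (chr6:90486427-90600203, plus strand), a folate enzyme used as a pan-astrocyte marker, stood at 31.1%, 43.6%, 40.4%, 53.0% and 45.5% in Young STD mice. Aged STD mice ran from 18.4% to 47.7% with a median of 29.2%, and Aged ENR mice from 25.8% to 43.1% with a median of 34.9%. All groups overlapped. The Aged STD difference was -11.1 (SE 4.98, exact permutation p = 0.0631, adjusted limma p = 0.498), and -5.41 without the mice of low index (exact permutation p = 0.333). In Aged ENR mice it was -8.18 (SE 4.0, exact permutation p = 0.0808), and -6.87 without the mouse of low index. Aqp4, the water channel of astrocyte endfeet, also on chromosome 18, stood at 16.8%, 19.4%, 20.6%, 14.5% and 10.9% in Young STD mice and had a median of 12.3% in Aged STD and 13.9% in Aged ENR mice. Aged ENR mice were 3.05 above Aged STD mice (SE 2.87, exact permutation p = 0.375), and the difference was 3.13 without the mice of low index, 0.69 without Aged ENR replicate 6 and -2.02 when only CpGs measured in every mouse were used. The glutamate transporter gene Slc1a3 stood at 28.1%, 25.4% and 25.8%, and the connexin genes Gja1 and Gjb6 at 17.0%, 14.4% and 16.04% and at 13.7%, 11.2% and 11.7%. Sox9, a transcription factor of astrocyte fate, stood at 3.28%, 2.53% and 2.51%, and the brain aldolase gene Aldoc at 8.15%, 5.82% and 7.78%. Of the 48 Aldoc CpGs, 35 lie in another protein-coding gene, and the others stood at 31.8%, 20.04% and 25.6%, an Aged STD difference of -11.8 in place of -2.33. Glul, which makes glutamine from glutamate, stood at 3.63%, 3.41% and 4.72%, and 19 of its 60 CpGs lie in another protein-coding gene. The single CpG of S100b, a calcium-binding protein, was at 88.7%, 100% and 81.2%.

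Microglia genes were lower in Aged STD mice in 8 of 8 tested regions, and their median of -6.10 was the largest of the 5 lists. It was -3.68 without the mice of low index, with 7 of 8 lower. Aged ENR mice had a median of -4.85 against Young STD mice and 3.61 against Aged STD mice, and these were -3.57 and -0.27 without the mice of low index. Cx3cr1, the receptor for the neuronal chemokine fractalkine, was the only glial region in which the Aged STD and Young STD mice did not overlap. It stood at 25.6%, 25.3%, 24.6%, 28.7% and 26.4% in Young STD mice and at 19.5% to 23.9% in Aged STD mice (median 23.3%). Of all regions, 0.837% did not overlap with the Aged STD mice lower. Aged ENR mice ran from 22.1% to 24.8% with a median of 23.2%. The difference from Young STD was -3.79 in Aged STD mice (SE 1.28, exact permutation p = 0.00126, adjusted limma p = 0.403) and -2.90 in Aged ENR mice (SE 1.13, exact permutation p = 0.00253, adjusted limma p = 0.601). These became -2.57 (exact permutation p = 0.0159) and -2.72 (exact permutation p = 0.00649) without the mice of low index. Of the 179 CpGs of this region, 106 lie inside other protein-coding genes. Without them the differences were -4.30 in Aged STD mice and -2.96 in Aged ENR mice.

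Tmem119 (chr5:113793729-113800516, minus strand), a surface protein that marks resident microglia, stood at 73.0%, 67.2%, 66.9%, 69.2% and 63.5% in Young STD mice. Aged STD mice ran from 38.7% to 76.4% with a median of 62.2%, and the 5 Aged ENR mice with a value from 57.5% to 64.8% with a median of 62.1%. The Aged ENR values lay low in the young range or below it, and the Aged STD values spread around it. The Aged ENR difference from Young STD was -6.37 (SE 2.68, exact permutation p = 0.0238, adjusted limma p = 0.638), and -6.88 without the mouse of low index (exact permutation p = 0.0238). Itgam, the integrin chain CD11b (chr7:128062640-128118491, plus strand), stood at 75.3%, 63.0%, 70.7%, 95.1% and 75.2% in Young STD mice, at 27.7% to 85.4% in Aged STD mice (median 59.1%) and at 46.4% to 80.5% in Aged ENR mice (median 68.1%). Its Aged STD difference of -15.6 (SE 8.62, exact permutation p = 0.119) was the largest of the list and was -6.06 without the mice of low index. Its Aged ENR difference from Young STD was -10.1 (SE 6.74, exact permutation p = 0.194), and -6.93 without the mouse of low index. Of its 11 CpGs, 10 lie in another protein-coding gene. The complement gene C1qa (chr4:136895917-136898803, minus strand) stood at 9.11%, 22.3%, 18.8%, 8.07% and 10.5% in Young STD mice, with a median of 7.75% in Aged STD and 12.8% in Aged ENR mice. Aged ENR mice were 6.82 above Aged STD mice (SE 5.08, exact permutation p = 0.254), and 6.89 above them without the mice of low index. A single Aged ENR mouse, replicate 7, stood at 42.2% and the others of its group at 5.15% to 16.1%, and without it the C1qa difference was 2.40. C1qc, another chain of the same complex, stood at 76.9%, 61.5% and 67.7%, and its Aged STD difference of -15.4 was -3.28 without the mice of low index. The macrophage transcription factors Spi1 and Irf8 stood at 63.9%, 56.0% and 57.8% and at 21.9%, 19.5% and 18.3%. P2ry12, the purinergic receptor of microglial processes, stood at 45.8%, 45.0% and 51.6%. All 13 CpGs of P2ry12 and all 44 of Irf8 lie in other protein-coding genes as well. The single CpGs of Csf1r and C1qb were at 92.3%, 100% and 72.0% and at 60.9%, 92.7% and 78.3%, in 3 or 4 mice per group.

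Neighbouring CpGs, no more than 100 bases apart and at least 3 together, formed 150 clusters in the glial regions. Of these, 73 were under 10% in Young STD mice, 53 between 10% and 80%, and 24 over 80%. No member cluster was called after adjustment, where 0.00133% of all clusters were in Aged STD against Young STD and none in the other comparisons, with a smallest adjusted limma p of 0.552, 0.923 and 0.550 in the 3 comparisons. At an unadjusted limma p below 0.05, 11 of 149 passed in Aged STD against Young STD (7.38%, 10 of them lower, against 6.20% of all clusters, 4.50% lower). In Aged ENR against Aged STD 8 of 149 passed (5.37%, 3 of them lower, against 3.93%, 1.53% lower), and in Aged ENR against Young STD 13 of 148 (8.78%, 7 of them lower, against 5.64%, 3.54% lower). The split by direction changed in other fits. With the composition index as a covariate, 5 of 12 clusters that passed were lower in Aged STD than Young STD mice (5.38% of all clusters passed, 2.53% lower), 6 of 9 in Aged ENR against Aged STD (4.46%, 2.41% lower) and 5 of 11 in Aged ENR against Young STD (5.41%, 2.68% lower). When the mice of low index were left out, 3 of 8 were lower in the first comparison (4.74%, 2.35% lower), 5 of 8 in the second (3.87%, 2.17% lower) and 7 of 12 in the last (5.31%, 3.14% lower). The clusters described next were chosen after their values were seen.

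A cluster of 5 cytosines in the coding exon of Gja1 differed widely in Aged STD mice. Gja1 encodes the main gap junction protein of astrocytes, and its promoter stood at 0.63% in Young STD mice. The exon cluster averaged 91.6% ± 12.7 (SD, n = 5) in Young STD mice, 51.9% ± 26.8 (SD, n = 5) in Aged STD mice and 87.1% ± 11.8 (SD, n = 5) in Aged ENR mice. Aged STD mice ran from 7.39% to 80% and Aged ENR mice from 71.8% to 100.7%, so the groups overlapped only at their edges. The difference of Aged STD from Young STD was -39.7 (SE 12.1, exact permutation p = 0.0159, adjusted limma p = 0.659), and that of Aged ENR from Aged STD was 35.2 (SE 12.2, exact permutation p = 0.0238, adjusted limma p = 0.923). Without the mice of low index these were -28.6 (exact permutation p = 0.0317) and 24.1 (exact permutation p = 0.0397). The Gjb6 connexin gene held a cluster with the same order of group means, at 72.1%, 32.3% and 54.6%, and an Aged STD difference of -39.7 (exact permutation p = 0.0394), which was -45.6 without the mice of low index (exact permutation p = 0.0286). Its Aged ENR difference from Aged STD was 22.2 (exact permutation p = 0.219). Another Gjb6 cluster went the other way in that comparison, at -2.66 (exact permutation p = 0.00816), and at -3.08 without the mice of low index (exact permutation p = 0.00476).

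Tmem119 held neighbouring clusters whose differences had opposite signs within the printed exon stretch. The cluster of the first 3 capital pairs averaged 80.7% in Young STD, 97.7% in Aged STD and 98.5% in Aged ENR mice, a difference of 16.9 in Aged STD mice (exact permutation p = 0.0286, adjusted limma p = 0.552) from 3 young and 4 old mice, where 0.0286 is the smallest p that this number of mice allows. The difference was 16.1 from 3 mice against 3 without those of low index (exact permutation p = 0.1, the smallest possible). The cluster of the other 4 averaged 97.04%, 85.3% and 87.7%, a difference of -11.7 (exact permutation p = 0.0794). Of the 5 clusters in the 3′ untranslated end of Sox8, 4 had lower means in both old groups than in Young STD mice, and the other stood at 10.8%, 22.4% and 8.48%. The smallest Aged STD difference of the 4 was -4.40 (exact permutation p = 0.672), and it was 2.17 without the mice of low index. The widest difference went from 40.3% in Young STD to 1.36% in Aged STD and 13.4% in Aged ENR mice, an Aged STD difference of -38.9 (exact permutation p = 0.00794), which was -40.3 with 3 Aged STD mice left when those of low index were removed (exact permutation p = 0.0714). The promoter clusters of Sox8 stood between 0.17% and 4.42% in all groups. The Cldn11 flank printed above averaged 7.67%, 1.28% and 9.06%, with -6.39 in Aged STD against Young STD (exact permutation p = 0.0164) and 7.78 in Aged ENR against Aged STD (exact permutation p = 0.00408). They became -6.30 (exact permutation p = 0.0873) and 6.27 (exact permutation p = 0.0429) without the mice of low index. A promoter cluster of Pdgfra was at 6.11%, 5.49% and 0.46%, a difference of -5.65 in Aged ENR against Young STD (exact permutation p = 0.00379, adjusted limma p = 0.55), and a cluster at the 3′ end of Mobp stood at 50.3%, 65.9% and 79.6% (exact permutation p = 0.05 for Aged ENR against Young STD). Without the mouse of low index the Pdgfra difference was -5.58 (exact permutation p = 0.00866) and that of Mobp 27.3 (exact permutation p = 0.0952).

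**Figure D4:**
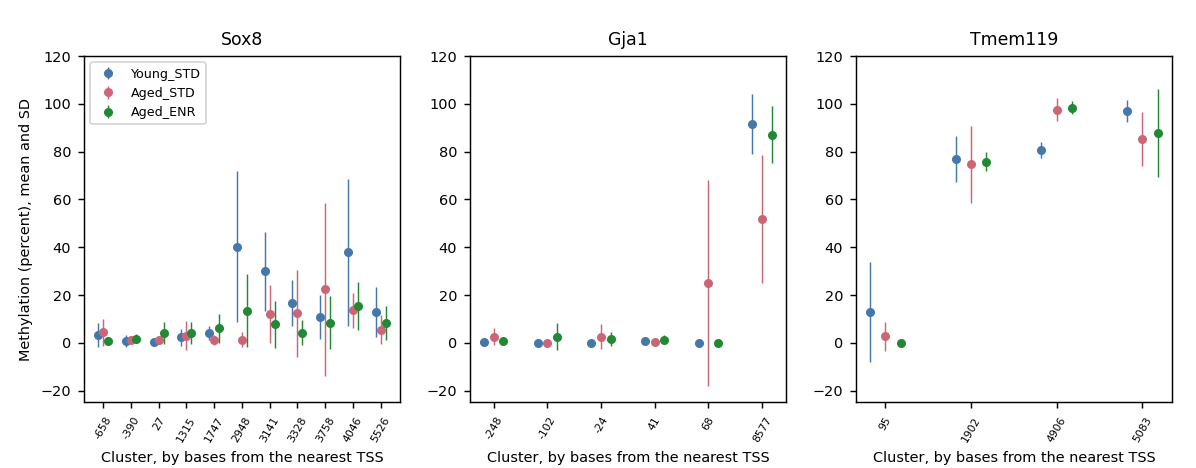
Mean cluster level (%, vertical axis, bars are SD) along Sox8, Gja1 and Tmem119 by distance from the nearest transcription start (horizontal axis) for the 3 groups of mice. Near the start the Sox8 clusters lay under 5% in all groups, as did the Gja1 clusters but 1 at 25% in Aged STD mice, whereas the Tmem119 promoter cluster was at 13.03%, 2.75% and 0%. Groups lay farther apart at the distal clusters of Sox8 and the coding exon of Gja1.

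Single CpGs gave no call either. Of the member CpGs tested, 957, 983 and 949 in the 3 comparisons, 0 passed adjustment, and the smallest adjusted limma p was 0.760, 0.769 and 0.776. The same fits called 0 of 527597, 0 of 530258 and 0 of 522275 CpGs across the genome. At an unadjusted limma p below 0.05, 61 passed in Aged STD against Young STD (6.37%, 50 lower, against 4.42% of all CpGs, 3.33% lower), 24 in Aged ENR against Aged STD (2.44%, 8 lower, against 2.25%, 0.798% lower) and 37 in Aged ENR against Young STD (3.90%, 26 lower, against 3.95%, 2.56% lower). These splits changed as well. With the index as a covariate, 24 of 48 CpGs that passed were lower in the first comparison (4.68% of all CpGs passed, 2.12% lower), 22 of 35 in the second (3.13%, 1.78% lower) and 21 of 49 in the last (4.62%, 2.27% lower). When the mice of low index were left out, the counts were 15 of 24 (3.08%, 1.69% lower), 11 of 18 (2.45%, 1.33% lower) and 22 of 34 (3.57%, 2.16% lower) in that order. In the fits with all mice, a difference over 25 points in either direction was found at 107 (11.2%), 58 (5.90%) and 75 (7.90%) of them, against 9.35%, 7.15% and 7.60% of all CpGs.

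Among CpGs with a value in every mouse of a comparison, the Glul promoter held a cytosine that was higher in both old groups. At chr1:153901782 on the minus strand, 666 bases from the nearest start and inside the printed stretch, Young STD mice stood at 0%, 0%, 1.57%, 0% and 0%. Aged STD mice ran from 0% to 32.8% and Aged ENR mice from 2.63% to 41.9%, so every Aged ENR mouse lay above the young mice. The differences were 15.8 in Aged STD mice (SE 5.29, exact permutation p = 0.0202, adjusted limma p = 0.760) and 15.96 in Aged ENR mice (SE 5.87, exact permutation p = 0.0101), and without the mice of low index 12.8 (exact permutation p = 0.0476) and 16.7 (exact permutation p = 0.0173). CpGs that were lower in Aged ENR than in Young STD mice included chr2:102677134 in a Slc1a2 intron at -20.3 (exact permutation p = 0.0189) and chr6:90550459 at an internal promoter of Aldh1l1 at -20.4 (exact permutation p = 0.0126). In Irf8, chr8:120736909 differed by -24.2 in Aged STD against Young STD mice (exact permutation p = 0.0152), and by -21.3 without the mice of low index (exact permutation p = 0.159). In the Cldn11 flank, chr3:31166258 was 9.15 higher in Aged ENR mice than in the Aged STD group (exact permutation p = 0.00466), and 8.24 higher without the mice of low index (exact permutation p = 0.0333). Among CpGs measured in every mouse of both old groups and lower in Aged ENR mice, chr11:112781290 in the Sox9 promoter had the smallest limma p, at -8.42 in Aged ENR relative to Aged STD mice (SE 4.34, exact permutation p = 0.192).

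Other genes of the same cell types and genes of other cells were counted in the same way. In Aged STD against Young STD the median difference was -2.55 over 14 further oligodendrocyte genes, -0.84 over 10 further astrocyte genes and -1.09 over 11 further microglia genes, and these were -1.72, -0.53 and -0.43 when the mice of low index were left out. It was -1.31 over 16 genes of neurons and granule cells, 13 of them lower, and -0.89 over 11 genes of blood vessels and mural cells, 7 of them lower. These were -1.16 with 12 lower and -0.12 with 6 lower without the mice of low index. Gal3st1, which makes the myelin lipid sulfatide, differed by -11.1 and passed at an unadjusted limma p below 0.05, as did Ndrg2, an astrocyte gene, at -8.12 and Prox1, the transcription factor that marks granule cells, at -4.99. The endothelial gene Pecam1 passed at -10.8. For these 4 genes the values without the mice of low index were -9.38, -5.66, -3.63 and -9.17, and of them Ndrg2 alone passed. Other genes of these lists were higher in Aged STD mice. The astrocyte gene Fgfr3 ran from 6.21% to 7.97% in Young STD and from 6.61% to 12.7% in Aged STD mice. The oligodendrocyte gene Mal ran from 2.25% to 11.3% and from 7.38% to 15.2% in the same order. The differences between lists were not tested.

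The shift of the glial regions was set beside the composition index and the library series of each mouse. The median deviation of the members from their mean over all mice was -0.24, 0.81, 0.76, 2.93 and 2.98 points in the Young STD mice. The first 3 of these belong to the library series whose identifiers begin with 27 and the other 2 to that beginning with 37, while their indices covered the narrow range given above. It ran from -2.65 to 1.89 in Aged STD mice and from -1.12 to 2.00 in Aged ENR mice. The lowest 3 values among Aged STD mice belonged to the mice with an index under 25%, and the highest in each old group belonged to the mouse with the highest index, 38.0% in Aged STD and 36.2% in Aged ENR. The lowest Aged ENR value belonged to a mouse with an index of 28.1%, next to -1.09 in the mouse with an index under 25%. Within the series beginning with 27, the median Aged STD difference was -2.08 and Sox10, Aqp4 and C1qa had an unadjusted limma p below 0.05, against 7.63% of all regions. Within the series beginning with 37 it was -2.80, with Slc1a2, Aldh1l1 and Sox8, against 6.23% of all regions. That fit had only 2 Young STD and 3 Aged STD mice. The part of the composition index in these values was not tested beyond the fits without the 4 mice and with the index as a covariate.

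**Figure D5:**
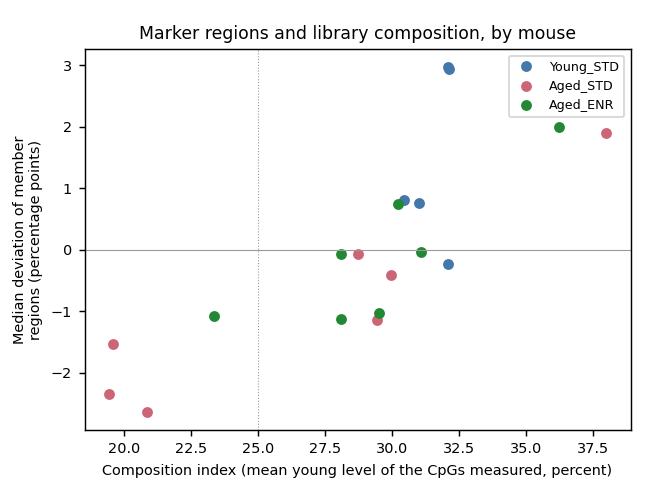
Median deviation of the 33 glial regions in each mouse (percentage points, vertical axis) against its composition index (%, horizontal axis), coloured by group, with a dotted line at 25%. The mice left of the line lie low and the old mice of highest index lie high.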

How the data were processed

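RRBS was performed on the micro-dissected dentate gyrus of single mice. Per the labels' processing notes, the authors used Trim Galore 0.4.0, cutadapt 1.8.1, Bismark 0.16.1 and methylKit 1.5.2 with the mm10 build, whereas the study's methods name later versions of Trim Galore and Bismark. Those methods state that cytosines under 10 reads were removed, and the counts themselves were not analysed here. The deposited table gives the percent methylation of each cytosine in each mouse and no read counts, so limma was used in place of a test on reads, and counting errors could not be computed. Of 24 described samples, the table has columns for 19, and the young enriched mice were not analysed here. In addition, 20 cytosines outside CpGs were left out.

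CpGs were assigned to GENCODE M21 genes with 2 kb flanks, and a promoter was 1 kb on either side of a transcription start. A region needed 3 CpGs. Its level in a mouse was the mean of the CpG means plus the mean deviation of the CpGs measured in that mouse. Each comparison was fitted with limma 3.58.1 (R 4.3.3, empirical Bayes with a variance trend, the mice of both groups, at least 3 mice per group). The fits within a library series required 2 mice per group. P-values were adjusted by Benjamini-Hochberg over all regions or all CpGs, and an adjusted p below 0.05 was a call. In simulated data with 200 changed regions per size, 42 of those changed by 5 points, 101 changed by 10 and 150 changed by 20 were called for Aged STD against Young STD. The simulated noise was normal and independent between regions, with no shift shared by the regions of a mouse. These counts therefore do not give the share that would be called in the real data.

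The members and gene lists were chosen with earlier results of these data known. Differences are given for the region with the largest difference in each list and comparison and for every region with an unadjusted p below 0.05, and single CpGs are examples from those with the smallest p in each direction. The exact two-sided permutation tests of the mean difference, the clusters, the fits without mice of low composition index, within library series and without CpGs in other genes were added after the limma results were seen. Other genes are given by counts with examples. Alternatives covered the CpGs used, the summary of a region, the model, and the mice. At CpGs of intermediate mean level, agreement of opposite strands was low: over 177 values the difference between strands had an SD of 41.9 points. CpGs of low or high level were not part of this figure. Figures were drawn with matplotlib 3.10.9.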

Additional observations from a re-analysis of the deposited data

Results flagged for a closer look

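Within each group, the highest and lowest regional level was compared with the others by Dixon's criterion, in 99 groups of 33 regions. It singled out 8 values, where chance gives about 1 in 20 groups. At C1qa, a single Aged ENR mouse stood at 42.2%, against 5.15% to 16.1% in the others. At Mog, the lowest Aged ENR mouse stood at 40.1%, against 76.6% to 95.3%, and its library had a composition index under 25%. At Opalin, the lowest Aged STD mouse stood at 11.6%, against 83.4% to 112%, and the lowest Aged ENR mouse stood at 11.6%, against 92.3% to 102%. Both low values were identical, at 11.5816%, and the highest Aged STD value was 111.582%. Such values can rest on few of the 6 CpGs of Opalin and need not be levels of the whole region. At Olig2, the lowest Aged STD mouse stood at -0.118%, against 2.98% to 3.79%. It was the mouse that was lowest at Opalin, and its composition index was 20.8%. At Ugt8a, the highest Aged STD mouse stood at 11.2%, against 3.75% to 6.91%. The Aged ENR mouse with the highest composition index gave the highest value at Cspg4, 60.2% against 47.6% to 52.3%, and at Slc1a2, 10.4% against 4.59% to 6.58%. The part of the composition index in these values was not tested.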

How the results depend on the processing

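No alternative gave a call for a member region or CpG at an adjusted limma p below 0.05. Counts of members at an unadjusted p below 0.05 moved. The share of all regions moved as well. For Aged STD against Young STD it was 9.85% in the main fit, 6.36% with promoter CpGs alone and 6.72% with the index as a covariate. It was 5.84% without the mice of low index, 7.63% within series 27 and 6.23% within series 37. Where no share is given for a fit, its count does not show a change particular to the members. For Aged STD against Young STD the 6 members became 1 with CpGs measured in all mice (15 regions tested), 3 with plain means, 3 with the median of deviations, 0 with promoter CpGs alone, 2 with the composition index as a covariate, 3 without the mice of low index, and 3 within either library series. They ranged from 4 to 8 when single mice were left out. For Aged ENR against Aged STD the 0 members became 1 with CpGs measured in all mice, with plain means, with promoter CpGs, without CpGs in other coding genes and without the mice of low index, and 2 outside promoters, with 0 to 2 when single mice were left out. For Aged ENR against Young STD the 5 members became 3 with CpGs measured in all mice, 1 with plain means, 2 with the median of deviations, 0 with promoter CpGs, 3 outside promoters and 2 within either series, with 3 to 6 when single mice were left out. The cause was not tested beyond what each alternative changes.

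The members' median of -2.56 for Aged STD against Young STD was -4.75 with plain means, -0.20 with the median of deviations, -0.47 in promoters, -5.35 outside promoters and -0.51 with the mouse mean removed, and ran from -3.34 to -1.96 when single mice were left out. The median of 1.34 for Aged ENR against Aged STD was -0.0763 with CpGs measured in all mice and -0.0563 without the mice of low index, and ran from 0.55 to 2.13. The median of -1.40 for Aged ENR against Young STD was -4.06 outside promoters, and ran from -2.15 to -0.67. Without the mice of low index, 5, 13 and 3 of the 33 regional differences turned sign in the 3 comparisons, among them Opalin (6.10) and P2ry12 (4.98) in Aged STD against Young STD. Opalin also turned sign with the index as a covariate (1.02) and within series 37 (1.70), and Aldoc was 0.014 outside its promoter. Under the other alternatives, sign changes included Pdgfra in Aged STD against Young STD (-0.62 with CpGs measured in all mice, -1.40 with plain means, -0.29 in the promoter), Aqp4 in Aged ENR against Aged STD (-2.02 with CpGs measured in all mice), Cspg4 in Aged ENR against Aged STD (-1.60 outside the promoter) and in Aged ENR against Young STD (-1.65 with plain means, -2.31 outside the promoter), and Slc1a2 in Aged ENR against Young STD (0.38 with CpGs measured in all mice).

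Single mice moved some regional differences by over 1.5 times: the Mog difference of Aged STD from Young STD was -13.4 without Aged STD replicate 3, that of Aged ENR from Aged STD 2.06 without the same mouse and 19.7 without Aged ENR replicate 4, the Sox10 difference of Aged ENR from Aged STD 1.87 without Aged ENR replicate 5, and the Itgam difference of Aged ENR from Young STD -5.35 without Young STD replicate 4.

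Mice of different groups share replicate numbers, but same-numbered mice did not deviate together (r from -0.19 to 0.10 over regions). With the replicate number as a block, 2, 0 and 3 members had an unadjusted p below 0.05 in the 3 comparisons, with 0 calls. The share of all regions under this fit is not given, so these counts do not show a change particular to the members.

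Single values at CpGs were often extreme, and depth could not be examined: of 3009 member values at CpGs of intermediate level, 36.0% were exactly 0 or 100. Without read counts, low coverage and true extremes cannot be told apart.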
